A study of Mus musculus with 9 samples.

Results

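The ubiquitin-specific proteases (USPs) were followed here in mouse oocytes as all genes whose symbol is Usp followed by a digit. The rule took 56 of the 24736 genes in the expression tables, and no measured value entered it. One of the 56, Usp6nl, encodes a GTPase-activating protein that is named after another gene and is not itself a USP. The study asked how chronic mild stress, and a herbal decoction called KYZY given after it, act on the oocyte transcriptome. Every library came from 15 oocytes of 1 female ICR mouse (4 to 5 weeks old by the labels), arrested at metaphase II and taken from the oviduct 16 h after 7.5 IU hCG, itself preceded by 7.5 IU PMSG. All mice were superovulated in this way, so the controls carry the hormone treatment too, and all cumulus-oocyte complexes were stripped with hyaluronidase. Control mice received no stress (3 libraries), and stress mice received 1 stressor a day for 6 weeks (3 libraries). The set of stressors included tail pinch, cold swimming, deprivation of food or water, wet bedding, constant light and restraint. KYZY mice had 6 weeks of stress, given as for the stress group, and then 0.1 ml of decoction a day by gavage for 4 weeks (3 libraries). There was no group with the decoction and no stress, and none that was gavaged with vehicle. The same age of 4 to 5 weeks is given for all 9 libraries. After 6 weeks of stress it cannot be the age at collection of stress and KYZY mice, so that age may differ between the groups. The labels do not say when stress mice were sampled after the last stressor. The decoction, the time since stress and the age at collection therefore cannot be told apart in the KYZY group.

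Ubiquitin is attached to proteins by a chain of activating, conjugating and ligating enzymes, and USPs are the largest family of cysteine proteases that take it off again. They trim or remove chains and so spare substrates from the proteasome, reset histone marks, recycle receptors and keep the pool of free ubiquitin filled. A metaphase II oocyte makes almost no new RNA and lives on stored messages, so a transcript level measured in it reflects what was stored, and how the polyadenylated message was captured, rather than current transcription.

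The deposited tables held 46324094 to 106990821 counts per library, and levels below are CPM, counts scaled to 1000000 per library with TMM factors. All 10 oocyte markers examined (among them Zp3, Gdf9 and Bmp15) were above 0 in every library. Of 18 cumulus and granulosa markers, 15 to 17 were above 0 in control 3, stress 3, KYZY 2 and KYZY 3, against 5 to 12 in the other 5 libraries, and the mean of log2(CPM + 1) over those markers was 2.12 to 3.06 against 0.994 to 1.50. Tnfaip6 and Ptx3, which build the expanded cumulus matrix, were at 0 in all of the other 5. The summed CPM of the 18 markers was 597 to 871 in control, 680 to 1397 in stress and 740 to 1702 in KYZY libraries. Other somatic markers differed too. The 8 blood and immune markers summed to 6.60 to 77.6 CPM in the same 4 libraries and 1.03 to 4.40 CPM in the other 5. The 8 oviduct epithelium markers summed to 2.67 to 21.5 against 0.466 to 4.30 CPM, with overlap. The split is named below by the cumulus markers that defined it. In bulk RNA, fewer cells of a type and less RNA per cell cannot be told apart. Calls, and the family's counts and medians, are given with and without these 4 libraries.

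Most USP genes were represented in the stored transcripts. Of the 56 members, 46 were above 0 in all 9 libraries, and 49 to 52 were above 0 in any 1 library. The mean level was over 100 CPM for 13 members, 10 to 100 CPM for 21, and 1 to 10 CPM for 7. A filter on low counts kept 50 members, 9 of them with a mean of at most 1 CPM. The family took 0.524% (control 1) to 0.671% (stress 3) of all counts. Usp9y, on the Y chromosome, and Usp17la were at 0 in every library, which allows up to 0.105 to 0.245 CPM (3 read pairs, for counting error only). Usp17lb, Usp17lc and Usp17ld of the same chromosome 7 cluster reached at most 0.162, 0.352 and 0.038 CPM. Usp18, which removes the ubiquitin-like modifier Isg15, was at 0 in 7 of 9 libraries, with 0.217 CPM in stress 3 and 0.352 CPM in KYZY 2. These 6 were dropped by the filter. Usp17 genes are near-identical copies, so reads could be split among them, and the same holds to a lesser degree for Usp22, Usp27x and Usp51.

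**Figure D1:**
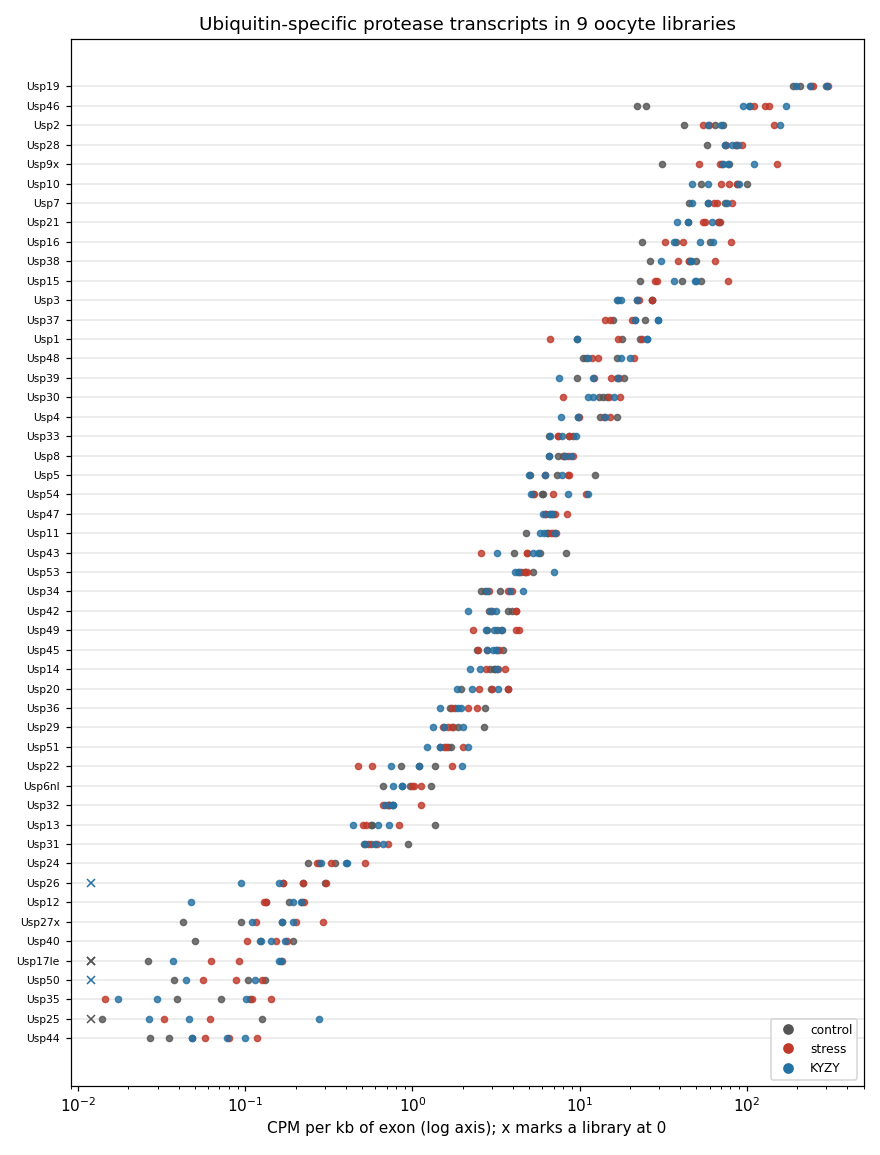
Level of each of the 50 members kept by the low-count filter in the 9 libraries, as CPM per kb of exon on a log axis, with 1 point per library coloured by group and members ordered by mean. Usp19 lies to the right of every other member, Usp46 has 2 control points well to the left of its others, and crosses mark libraries at 0.

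Between members, levels were compared per kb of exon. Usp19, a deubiquitinase anchored in the endoplasmic reticulum membrane by its tail and known for its part in the quality control of secretory proteins, ranked first in all 9 libraries, at 248 ± 45.5 CPM per kb (SD, n = 9). It alone made up 19.1% (control 3) to 26.9% (control 1) of the summed CPM per kb of the family. Its CPM was 1573, 1101 and 1004 in control 1 to 3, 1287, 1328 and 1620 in stress, and 1607, 1267 and 1046 in KYZY. The ranges of the 3 groups overlapped almost completely. The next ranks went to Usp46 (99.5 CPM per kb), Usp2 (80.9), Usp28 (79.8), Usp9x (79.2), Usp10 (74.7) and Usp7 (63.5), followed by Usp21 (56.3), Usp16 (47.6) and Usp38 (43.7). Neighbours among ranks 2 to 7 differed by less than the SD over libraries of at least 1 of the pair, for example 79.2 ± 34.5 for Usp9x and 74.7 ± 18.5 for Usp10. The first 10 members held 78.3% of the family's CPM per kb, and the same 10 led when length was taken from the longest coding transcript.

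No member passed the test in any of the 3 comparisons, and with edgeR neither did any other gene. With edgeR's quasi-likelihood test, 0 of 50 members had an adjusted p under 0.05 in stress against control, in KYZY against stress or in KYZY against control, beside 0 of 13890 genes in each (0%). At an unadjusted p under 0.05 there was 1 member in stress against control (Usp46, higher), beside 2.69% of all genes (1.1% higher, 1.58% lower). There was 1 in KYZY against stress (Usp37, higher), beside 3.98% (2.15% higher, 1.83% lower), and 1 in KYZY against control (Usp46, higher), beside 2.74% (0.871% higher, 1.86% lower). With 1 member in 50 (2%), the share was below each background for both directions together, and a single gene decides it. Without the 4 libraries rich in cumulus markers there were 3, 6 and 8 of 51 members at that level, beside 8.46%, 8.41% and 8.83% of genes. DESeq2 called 0 members too, but 22, 13 and 1 of the 13890 genes in the 3 comparisons, with 2, 1 and 2 members at an unadjusted p under 0.05 beside 3.58%, 5.63% and 3.41% of genes. In counts simulated from these libraries, the test recovered 32% of 4-fold increases and 2% of 2-fold increases in stress against control. Those changes were placed in genes drawn at random from all genes kept. The median standard error in that comparison was 0.302 for members and 0.396 over all genes, so recovery for USP transcripts themselves was not measured. The comparisons share libraries: control serves in 2 of them, and so do stress and KYZY.

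The median log2 fold change of the 50 members was 0.10 in stress against control, beside -0.03 over all genes, with 32 members above 0 and 18 below, where 46% of all genes lay above 0. In KYZY against stress it was -0.09 beside 0.01, with 15 above and 35 below, where 50.8% of all genes lay above 0. In KYZY against control it was 0.00389 beside -0.00319, with 25 on each side. The median deviation of the members in a library, on the log2 scale, was -0.0356, 0.0488 and -0.0595 in control 1 to 3. It was 0.0831, 0.0653 and 0.00657 in stress 1 to 3, and -0.0327, -0.0230 and -0.0565 in KYZY 1 to 3. Control overlapped with stress and with KYZY, while KYZY lay below stress. This deviation varied within groups with an SD of 0.0414. Leaving out stress 1 took the first median to 0.0390 beside -0.0494 over all genes, and leaving out stress 2 to 0.0498 beside -0.0868. Without the 4 libraries rich in cumulus markers it was 0.0282 beside 0.0213 over all genes. Without those 4 libraries the medians for KYZY were -0.127 beside -0.0864 against stress and -0.0114 beside -0.0440 against control.

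**Figure D2:**
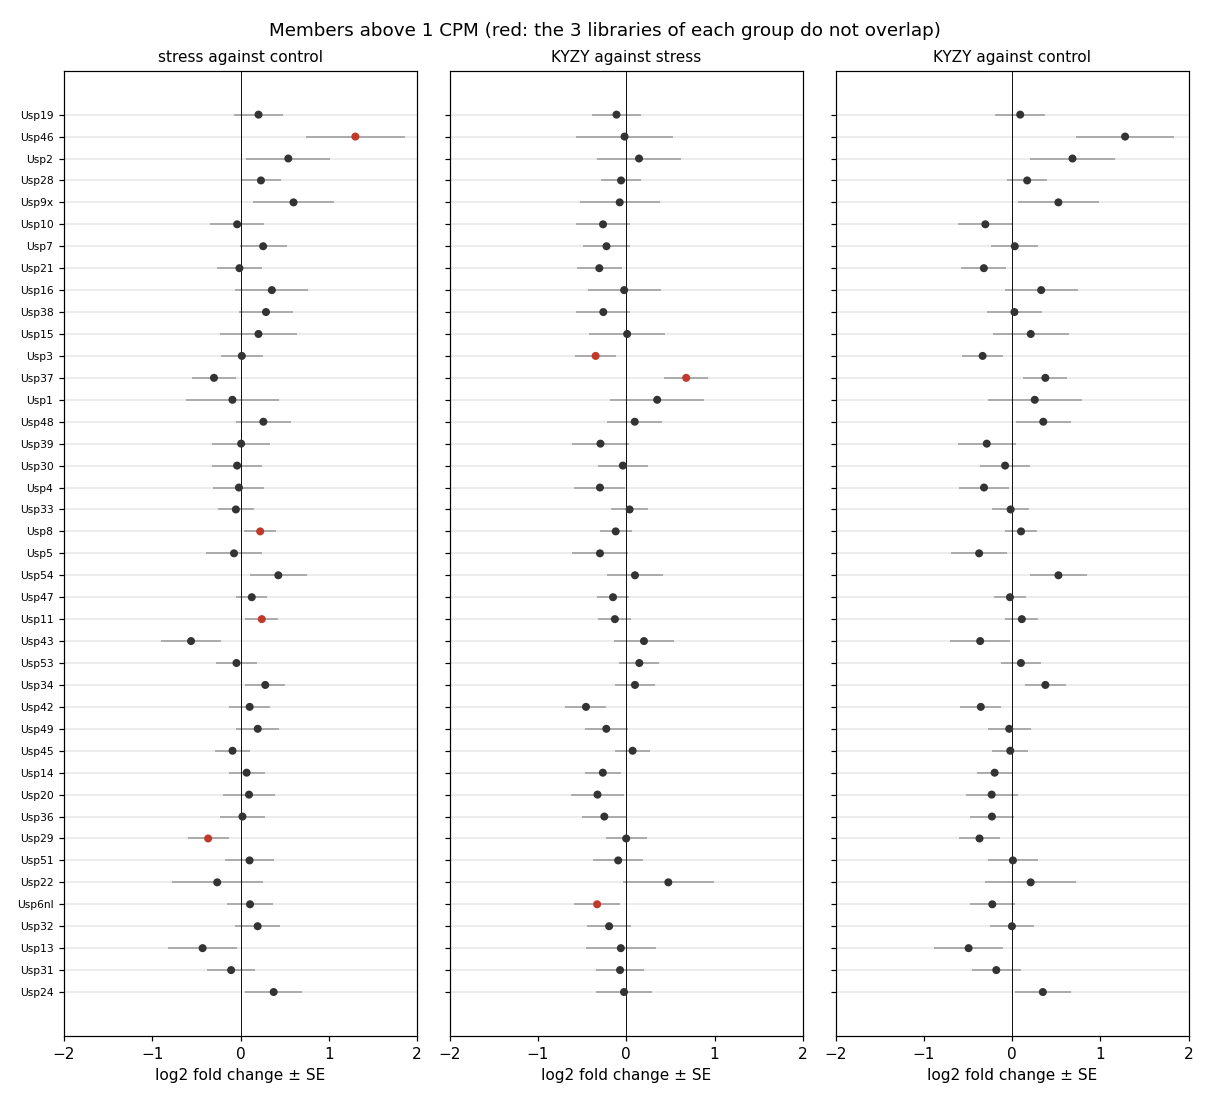
Log2 fold change with its standard error (edgeR, all 9 libraries) of the 41 members above 1 CPM in the 3 comparisons, in the same order as the levels. Red points are members whose 3 libraries in each group do not overlap; Usp46 stands farthest to the right in stress against control and in KYZY against control, and Usp37 in KYZY against stress.

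Usp46, Usp12 and Usp1 form the branch of the family that is switched on by the WD-repeat protein Wdr48, also called UAF1. Usp46 is known from neurons, where it acts on glutamate receptors. It lies on chromosome 5 (GRCm38, 73998726 to 74068411, minus strand). Usp46 was at 121, 107 and 507 CPM in control 1 to 3, at 531, 656 and 621 CPM in stress 1 to 3, and at 826, 501 and 457 CPM in KYZY 1 to 3. Control 1 and control 2 were low and the other 7 libraries, control 3 included, were all at least 3.78 times the higher of those 2. Stress and control did not overlap, while the lowest KYZY library fell below control 3. The mean was 245 ± 227 in control, 603 ± 64.8 in stress and 594 ± 201 CPM in KYZY (SD, n = 3 each).

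The log2 fold change of Usp46 was 1.30 (SE 0.559) in stress against control (edgeR quasi-likelihood test, unadjusted p = 0.0436, adjusted p = 1.00). It was 1.28 (SE 0.559) in KYZY against control (edgeR, unadjusted p = 0.0462, adjusted p = 0.996) and -0.02 (SE 0.550) in KYZY against stress. The size depended on the control libraries and, in KYZY against control, also on KYZY 1. Without KYZY 1 that difference was 0.96 (edgeR unadjusted p = 0.149, adjusted p = 0.810). Without control 3 the differences of stress and KYZY from control were 2.41 and 2.41, with edgeR adjusted p = 0.0766 and 0.0859. Without control 1 they were 0.98 and 0.95, and without control 2 they were 0.92 and 0.92, with edgeR adjusted p of 0.999 to 1 and unadjusted p of 0.125 to 0.132. The edgeR unadjusted p was also above 0.05 with no filter (0.0512 and 0.0525), a minimum count of 40 (0.0509 and 0.0505) and only the 2 groups (0.0626 and 0.0907). Other settings gave a lower unadjusted p than the main fit. It was 0.0135 and 0.0124 with DESeq2, and 0.0323 and 0.0345 with edgeR and a replicate block (log2 fold change 1.55 in both). A block on control and stress only gave 1.70 (edgeR unadjusted p = 0.0108). Limma voom gave 1.93 and 1.73 (unadjusted p = 0.000829 and 0.00304, adjusted p = 0.221 and 0.477). Usp46 was not called in any of these. Control 3 is also 1 of the 4 libraries with the highest cumulus marker score. Among those 4, Usp46 was at 507 (control 3), 621 (stress 3), 501 (KYZY 2) and 457 CPM (KYZY 3), with no gap between control and the rest. Among the other 5, it was at 121 and 107 CPM in control 1 and 2 and at 531, 656 and 826 CPM in stress 1, stress 2 and KYZY 1. In those 5 alone, an analysis added after the values were seen, Usp46 was called higher in stress (log2 fold change 2.39, edgeR adjusted p = 0.00494) and in KYZY (2.89, edgeR adjusted p = 0.00471), beside 1.04% and 0.837% of 14220 genes called. That fit has 2 residual degrees of freedom and takes KYZY 1, the only KYZY library left, to vary like the other groups. The part of cumulus or other somatic RNA in the level of control 3 was not tested. Exons of Usp46 are overlapped on the opposite strand by the antisense genes Usp46os1 and Usp46os2, which the tables do not list. Without strand in the library, their reads cannot be told from those of Usp46.

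**Figure D3:**
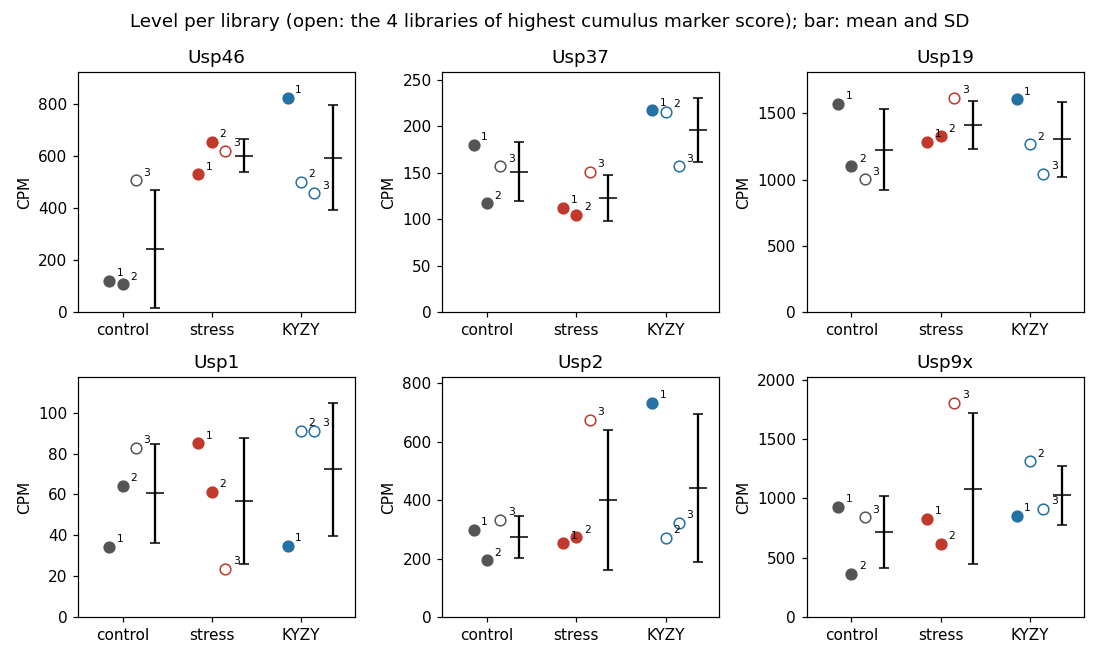
CPM of 6 members in each library (number beside the point), with open symbols for the 4 libraries of highest cumulus marker score and the mean with SD beside each group of 3. Usp46 is low in control 1 and 2 only, Usp37 is higher in all 3 KYZY libraries than in the stress libraries, and Usp1, Usp2 and Usp9x spread widely within groups.

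The other members of the Wdr48 branch had other patterns over the libraries. Usp1, which deubiquitinates PCNA and Fancd2 in DNA repair, was at 34.5, 64.4 and 82.7 CPM in control, 85.1, 61.3 and 23.9 CPM in stress, and 34.9, 91.0 and 91.1 CPM in KYZY. Each group held both low and high libraries. Usp1 had the widest spread within groups of the members above 10 CPM, with an SD of log2(CPM + 0.5) of 0.800, and its log2 fold changes of -0.09, 0.35 and 0.26 had standard errors of 0.531 to 0.532. Usp12, whose protein closely resembles Usp46, was at 0.205 to 0.969 CPM. Wdr48 itself was at 91.3 to 125 CPM in all libraries. Wdr20, which raises the activity of Usp12 and Usp46 further, was at 448 to 1024 CPM. Neither Wdr48 (log2 fold change 0.20 and 0.09 against control) nor any other of the 18 partners kept by the filter, of 20 listed, was called in any comparison.

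Members tied to DNA repair, p53 and the cell cycle were 7, all kept, and 0 were called. Usp37, which stabilises cyclin A at the entry into S phase, was at 180, 117 and 157 CPM in control, 112, 105 and 151 CPM in stress, and 217, 215 and 157 CPM in KYZY. All 3 KYZY libraries lay above all 3 stress libraries, though KYZY 3 exceeded stress 3 by only a few CPM. Its log2 fold change in KYZY against stress was 0.68 (SE 0.249, edgeR unadjusted p = 0.0209, adjusted p = 0.935). Over the alternatives run it stayed between 0.60 and 1.02, with adjusted p from 0.172 to 1. The edgeR unadjusted p was 0.0592 without stress 1, 0.0684 without stress 2, 0.0608 without KYZY 1 and 0.0641 without KYZY 2. In stress against control the log2 fold change of Usp37 was -0.30 (SE 0.248) and in KYZY against control 0.38 (SE 0.248), neither called. Exons of Vil1, on the opposite strand, overlap Usp37.

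The abundant members of this group overlapped between the groups. Usp28, a partner of the checkpoint protein 53BP1 that stabilises Myc, was at 241 to 394 CPM in the 9 libraries. Usp7, which holds Mdm2 and p53 in balance, was at 220 to 399 CPM. Usp10, a binding partner of the stress granule protein G3bp that also acts on p53, was at 376, 326 and 199 CPM in control, 325, 291 and 262 CPM in stress, and 337, 218 and 176 CPM in KYZY. In each group the library or libraries with high cumulus markers were the lowest for Usp10. Usp47, an enzyme of base excision repair, was the steadiest of the members above 10 CPM, at 35.9 to 49.7 CPM with an SD of log2(CPM + 0.5) within groups of 0.140. Usp44, known from the spindle checkpoint, stayed at 0.066 to 0.288 CPM, close to the level of 3 read pairs, and no fold is given.

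Histone deubiquitinases were 7, all kept, and 0 were called. Usp21 (90.6 to 164 CPM), Usp16 (75.5 to 260 CPM) and Usp3 (94.3 to 153 CPM), which act on ubiquitinated histone H2A, were its highest members per kb. Usp3 was at 153, 151 and 95.0 CPM in control, 152, 127 and 124 CPM in stress, and 124, 98.8 and 94.3 CPM in KYZY. Its KYZY libraries all lay below its stress libraries, and the log2 fold change was -0.35 (SE 0.236, edgeR adjusted p = 0.935). Usp22, the deubiquitinase of the SAGA coactivator complex, was at 2.09 to 8.79 CPM, which is 1.10 CPM per kb on average against 22.2 for Usp3. The members acting in signalling, also 7 kept and 0 called, include Usp9x and Usp15, which act on Smad4 and on the TGF-beta receptor complex. Usp9x, on the X chromosome, was at 931, 369 and 843 CPM in control, 827, 617 and 1804 CPM in stress, and 856, 1312 and 916 CPM in KYZY. Stress 3 was the highest and control 2 the lowest of the 9 libraries, and the groups overlapped. Usp2, linked to the circadian clock, was at 299, 194 and 333 CPM in control, 253, 273 and 676 CPM in stress, and 733, 271 and 324 CPM in KYZY. Single libraries, stress 3 and KYZY 1, stood above the rest. The log2 fold changes of Usp2 against control, 0.54 in stress and 0.68 in KYZY, had standard errors of 0.477 and 0.478 and were not called.

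The remaining roles held no call either. Usp8, which rescues receptors from lysosomal sorting at endosomes, was at 27.3 to 33.5 CPM in control, 33.7 to 38.0 CPM in stress and 27.3 to 37.0 CPM in KYZY. Its stress libraries all lay just above its control libraries, with a log2 fold change of 0.22 (SE 0.182, edgeR adjusted p = 1.00). Usp33, another receptor regulator, was at 27.4 to 40.2 CPM. Usp30, which sits on the outer mitochondrial membrane and opposes the removal of mitochondria, was at 36.6 to 79.9 CPM. Of the enzymes that recycle ubiquitin chains, Usp5, which takes apart free chains, was at 16.0 to 39.6 CPM, and Usp14, which is bound to the proteasome, at 10.4 to 16.9 CPM. Usp54 (34.1 to 74.2 CPM) and Usp53 (33.2 to 57.0 CPM), both long held to lack catalytic activity, overlapped between the groups too. Usp29, an imprinted gene read from the paternal allele, was at 14.0 to 21.5 CPM in control and 12.1 to 13.8 CPM in stress, without overlap, with a log2 fold change of -0.37 (SE 0.234, edgeR adjusted p = 1.00). It was at 10.6 to 16.0 CPM in KYZY. Usp6nl was at 7.45 to 8.37 CPM in stress and 5.73 to 6.49 CPM in KYZY.

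Usp26, an X-linked member best known from testis, was low, and only KYZY 1 (0 counts) was under the detection limit of 12 counts. It was at 0.694, 1.24 and 0.912 CPM in control, 1.26, 0.916 and 0.698 CPM in stress, and 0, 0.661 and 0.388 CPM in KYZY. All KYZY libraries lay below all others in CPM, though KYZY 2 did so only narrowly. It held 45 counts, beside 45 in stress 3 and 42 in control 1. The log2 fold change was -1.45 (SE 1.07) against stress and -1.44 (SE 1.07) against control, with edgeR adjusted p = 0.935 and 0.996. Without KYZY 1 these were -0.87 and -0.86, and without KYZY 2 they were -2.32 and -2.31, with no call. Without the 4 libraries rich in cumulus markers it was called lower in KYZY against stress and against control (edgeR adjusted p = 0.0197 and 0.0216), beside 0.809% and 0.837% of genes called. KYZY then rests on KYZY 1 alone, at 0 counts. Set at 3 read pairs (0.190 CPM), KYZY 1 was at least 5.75-fold lower than the mean of stress 1 and 2 and at least 5.11-fold lower than that of control 1 and 2.

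Groups that did not overlap were counted for all members. In stress against control there were 5 higher (Usp8, Usp11, Usp44, Usp46 and Usp17le) and 1 lower (Usp29), beside 7.88% of all genes in either direction (3.51% higher, 4.38% lower). In KYZY against stress there were 1 higher (Usp37) and 3 lower (Usp3, Usp26 and Usp6nl), beside 9.19% (3.76% higher, 5.44% lower). In KYZY against control there were 2 higher (Usp44 and Usp17le) and 1 lower (Usp26), beside 7.23% (2.43% higher, 4.79% lower). As shares of the 50 members these are 12%, 8% and 6%. The higher members in stress against control exceed their background of 3.51%, but 2 of those 5 were under the detection limit of 12 counts (3 read pairs) in all control libraries. Usp17le had 0, 0 and 4 counts in control and Usp44 had 4, 9 and 9. Both passed the low-count filter only through stress and KYZY libraries, and no fold is given for either. They are also the 2 higher members in KYZY against control, where the same limit holds.

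Levels in the 4 libraries with high cumulus markers were set beside those in the other 5. Usp15 was at 568 to 892 CPM in the 4 and 265 to 475 CPM in the 5, Usp16 at 169 to 260 against 75.5 to 133 CPM, and Usp48 at 97.6 to 122 against 60.9 to 74.8 CPM. In these 3 of 50 members all 4 libraries lay above the other 5, beside 9.94% of all genes, a larger share. Another 7, namely Usp4, Usp5, Usp10, Usp20, Usp39, Usp42 and Usp50, lay below them, beside 7.09% of all genes. Usp50 was at 0 to 5 counts in the 4 and 10 to 20 in the 5, at or around the detection limit throughout. Usp39, a splicing factor of the USP fold without catalytic activity, was at 16.9 to 27.5 CPM in the 4 and 34.8 to 41.2 CPM in the 5. Usp4 was at 28.2 to 36.1 against 48.5 to 61.0 CPM. The 4 libraries comprise 1 control, 1 stress and 2 KYZY libraries, and the part of this split in the KYZY values was not tested.

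**Figure D4:**
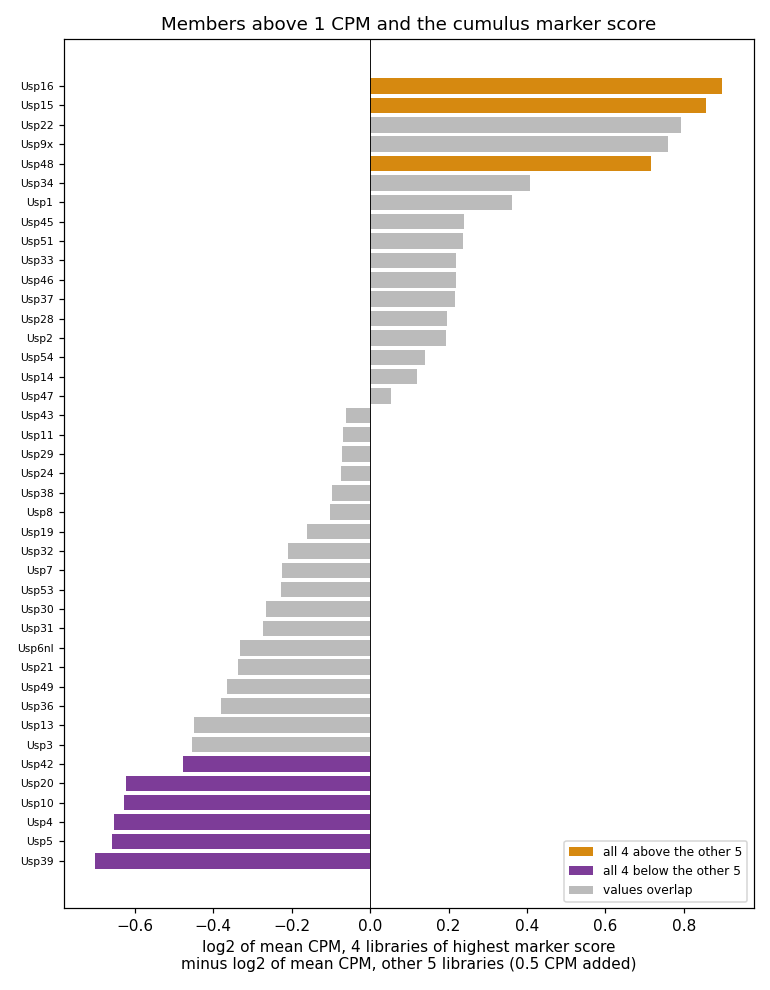
Difference in level between the 4 libraries of highest cumulus marker score and the other 5, as log2 of the mean CPM plus 0.5, for the 41 members above 1 CPM. Orange bars (Usp15, Usp16 and Usp48) are members with all 4 libraries above the other 5, and purple bars those with all 4 below; Usp46 is among the grey bars, whose values overlap.

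The spread within groups differed between members. The median SD of log2(CPM + 0.5) within groups was 0.317 for members kept and 0.357 over all genes kept. It exceeded the latter in 16 of the 34 members above 10 CPM. After Usp1, the widest above 1 CPM were Usp46 (0.772), Usp2 (0.676), Usp22 (0.660) and Usp9x (0.655).

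Other parts of the ubiquitin system were tested in the same fit. No gene was called among 12 genes of the JAMM and MPN-domain list, which also holds proteins that are not deubiquitinases, such as the splicing factor Prpf8 and the deneddylase Cops5. Likewise 0 were called of 13 genes of the OTU family, 5 of the UCH family, 3 of the Josephin family, 5 of the MINDY and ZUFSP families and 3 with a USP fold but another name. At an unadjusted p under 0.05 in KYZY against stress, Cops6, a subunit of the COP9 signalosome, was higher (log2 fold change 0.81), and Stambp, an endosomal deubiquitinase (-0.52), and Mindy4 (-1.02) were lower. In KYZY against control, Mindy4 (-1.21), Atxn7l2, a relative of the SAGA subunit that anchors Usp22 (-0.98), and Stam2, the endosomal partner of Usp8 (-0.71), were lower at that level. The edgeR adjusted p was 0.935 for the first 3 values and 0.996 for the last 3. Uchl1, an abundant deubiquitinase of oocytes and neurons, was at 1446 to 2784 CPM.

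The promoter sequences of the members were read from RefSeq (GRCm38.p6), which gave 44 windows of 300 bases for 43 of the 56 members, from 250 bases before to 50 after an annotated start. Some of these starts, as for Usp54, Usp37 and Usp2, lie inside the gene and not at its outer end. The window of Usp54 (20618305 to 20618604, minus strand) lies in a gene whose upstream end is at 20644491. Shown are Usp46, the most variable of the abundant members between libraries, Usp19, the most abundant, and Usp26, at a mean of 0.753 CPM. Printed are the first 150 bases of each window, 250 to 101 bases before the start, 5′ to 3′ on the gene's strand, with CG dinucleotides in capitals. Usp46 (chr5:74068512-74068661, minus strand) has 12 CG in this stretch, Usp19 (chr9:108490426-108490575, plus strand) has 5, and Usp26 (chrX:51801334-51801483, minus strand) has 5.
Usp46: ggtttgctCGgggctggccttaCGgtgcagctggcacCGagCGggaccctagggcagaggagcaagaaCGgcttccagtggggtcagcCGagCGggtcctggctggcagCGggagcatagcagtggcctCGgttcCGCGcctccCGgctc
Usp19: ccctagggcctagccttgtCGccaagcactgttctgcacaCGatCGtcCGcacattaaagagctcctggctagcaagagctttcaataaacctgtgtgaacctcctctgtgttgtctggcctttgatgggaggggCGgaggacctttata
Usp26: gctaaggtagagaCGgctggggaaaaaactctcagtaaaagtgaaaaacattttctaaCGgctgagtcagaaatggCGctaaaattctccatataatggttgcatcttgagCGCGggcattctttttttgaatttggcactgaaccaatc
Over the full 300 bases the CG counts were 38 for Usp46, 15 for Usp19 and 5 for Usp26. The median was 25 in the members' windows and 7 in all 32851 windows, and at least 20 CG were found in 25 of the 44 (56.8%) against 26.5% of all windows. By level, the median was 28 in 25 members above 10 CPM, 35 in 6 members at 1 to 10 CPM and 8 in 12 members under 1 CPM. The most abundant member per kb, Usp19, thus had fewer CG than the median member, while Usp25, at a mean of 0.314 CPM, had 54.

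**Figure D5:**
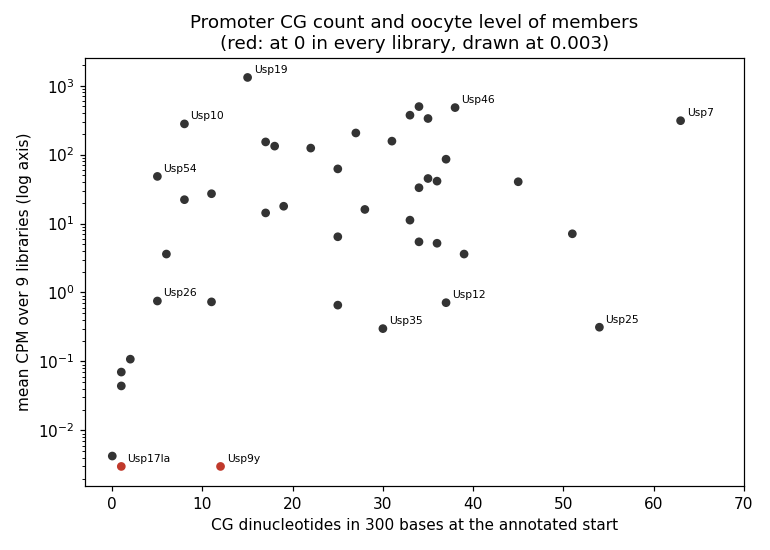
Number of CG dinucleotides in the 300-base RefSeq window at an annotated start of each of 43 members against its mean CPM over the 9 libraries (log axis). Members above 10 CPM span 5 (Usp54, whose window lies inside the gene) to 63 CG. Members under 1 CPM span 0 to 54, with Usp12, Usp25 and Usp35 at low levels but many CG.

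Some short motifs were counted in the same windows on both strands. The E-box CACGTG was in 5 of 44 (11.4%) against 7.15% of all, TATAAA in 5 (11.4%) against 13.6%, and CCAAT in 14 (31.8%) against 37.4%. These are matches of letters in a short window and do not show binding.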

How the data were processed

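Expected counts per gene were deposited as whole numbers by the authors for 9 libraries. Per the submitters' processing notes, reads were handled with bcl2fastq 2.20, Trim Galore, HISAT2, StringTie and DESeq2 on GRCm38 (mm10). Per the labels' protocols, libraries used SMART-Seq v4 and Tn5, which keep no strand and no molecular identifiers. A read pair was taken as worth 4 counts, so 3 read pairs (12 counts) are the detection limit. Counts were tested as deposited with edgeR 4.0.16 (R 4.3.3; TMM, filterByExpr with minimum count 10 and minimum total 15, 13890 genes kept, robust quasi-likelihood F test, all 9 libraries, 6 residual degrees of freedom, Benjamini-Hochberg over all genes, two-sided, threshold 0.05). Alternatives used DESeq2 1.42.0 and limma 3.58.1. Exon lengths came from GENCODE M21, since the RefSeq tables give none. The members, role lists and tests were chosen with earlier results of these data known. Members were named by a rule: unadjusted p under 0.05, the 10 highest per kb, and up to 3 leading members per role; others named were chosen after their values were seen. The replicate numbers are those of the labels, which do not say what a number stands for. Deviations from group means of same-numbered libraries correlated at 0.312, 0.185 and 0.346 between control and stress, but at -0.144 and -0.146 for KYZY 2, so 7 of 9 pairs exceeded 0.1 and the main test has no block. The test was checked on simulated counts. The list of ubiquitin and activating enzyme genes is not reported here.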

Additional observations from a re-analysis of the deposited data

How the results depend on the processing

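No USP was called with DESeq2, RLE scaling, no filter, a minimum count of 40, counts divided by 4, limma voom with library weights, a replicate block, only the 2 groups compared, or any 1 library left out (0 members in each comparison). Genes at large were called in some of these settings: 22, 13 and 1 with DESeq2, 2, 1 and 0 with voom, 2, 1 and 3 without control 3 (stress against control, KYZY against stress, KYZY against control), 1 in KYZY against stress with only the 2 groups, and 1 with the block on control and stress. Same-numbered control and stress libraries correlated positively in their deviations from group means. Control 2, however, correlated more with stress 1 (0.233) than with stress 2 (0.185), so a pairing was not established. With the replicate block the median log2 fold changes were 0.130, -0.131 and -0.00762 and 0 members were called. A block on control and stress only gave 0.0960 and 0 members. Without the 4 libraries of highest marker score, chosen after seeing the data, 1, 1 and 2 members were called (stress against control, KYZY against stress, KYZY against control), and the first median was 0.0282; fewer samples were fitted, and the cause was not tested. With 1 library left out, the medians ranged from 0.0390 to 0.160, from -0.168 to -0.0632 and from -0.0443 to 0.0483. Over all genes they ranged from -0.0876 to 0.0264, from 0.0143 to 0.0615 and from -0.0244 to 0.0553. The KYZY against control median was 0.0564 with DESeq2, 0.0562 with RLE scaling and -0.0482 with voom. Over all genes it was 0.0463, 0.0462 and -0.0173 in these settings, and the cause was not tested. Without filter, 54 members were fitted. Voom gave 4, 8 and 7 members at an unadjusted p under 0.05, beside 7.1%, 20.4% and 10.2% of all genes. Of 1320 alternative values of the 24 named members, 1172 kept direction and call, 144 uncalled values changed sign and 4 became called (Usp46 and Usp26, without the 4 libraries). With 3 libraries per group and this spread, 20% to 44% of simulated 4-fold changes were recovered, by comparison and direction.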

Other observations

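The level pattern of Usp46, low in control 1 and control 2 and higher in all other libraries, was counted over all genes after it had been seen. Both libraries lay under 1/2 of the lowest of the other 7 in 84 of 13890 genes, and over 2 times the highest of them in 9. Among the 6546 genes above 5 CPM on average, 15 were low in this way and 2 were high. Golga5, a golgin of the Golgi rim, was at 27.0 and 24.3 CPM in control 1 and 2 and at 93.7 to 188 CPM elsewhere. Cfl1, the actin-severing protein cofilin, was at 30.0 and 29.1 CPM there and at 97.0 to 219 CPM elsewhere. Daam1, a formin that assembles actin downstream of Wnt, was at 14.2 and 15.4 CPM there and at 38.7 to 78.5 CPM elsewhere. St3gal5, a ganglioside synthase, showed the opposite, with 97.6 and 96.9 CPM in the 2 libraries and 18.2 to 30.1 CPM in the rest. Usp46 was the only USP above 5 CPM with this pattern.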
